A study of Homo sapiens with 13 samples.

Results

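H3K27me3 regions that were called in ZNF263 knockout (KO) cells and overlapped no called region in wild-type (WT) cells numbered 1143, out of 10375 peaks in the KO list. They are called KO-only H3K27me3 peaks. A member was any KO peak that shared not even 1 bp with a WT peak, so the members were selected on the H3K27me3 calls themselves, 11.0% of the KO list, and their H3K27me3 values are given as a description. The 7 peak lists of the series held 136141 peaks in all. The other 9232 KO peaks overlapped a WT peak and are called shared. The 2575 WT peaks without a KO peak, 21.6% of the WT list, are called WT-only.

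KO cells carried a homozygous Cas9-made loss of ZNF263, a zinc finger transcription factor, in H1 (WA01), an established line of human embryonic stem cells, and came from the single line named 1-10. WT cells were unedited H1. Chromatin immunoprecipitation with sequencing (ChIP-seq) mapped H3K27me3, H3K4me3 and H3K27ac in each genotype. ZNF263 was mapped with a FLAG antibody in KO cells that expressed ZNF263-FLAG ectopically, at a level that is not given; libraries made in WT cells with an antibody to endogenous ZNF263 are labelled with the same list. Each histone mark list came from 1 ChIP library per arm as far as the labels say, and whether the endogenous ZNF263 libraries entered the FLAG list is not stated. There was thus no replicate of a histone mark and no test between genotypes. Only peak lists were used, so depth is unknown. Ranges in brackets after a share or a difference are 95% intervals (Wilson for shares, Newcombe for differences), which treat peaks as independent and reflect counting error alone. Positions refer to hg19 with the first base as 1. Genes were not assigned, because an annotation of that build was not used here.

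H3K27me3 is laid down by Polycomb repressive complex PRC2 and marks silent genes, many of them regulators of development. PRC2 also binds the mark it makes, through its EED subunit, which lets a domain grow from an existing edge. In embryonic stem cells H3K27me3 often lies together with H3K4me3, the mark of promoters, in so-called bivalent chromatin. H3K27ac marks active promoters and enhancers and sits on the same lysine, so a single histone tail cannot carry both.

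The KO-only peaks were weak and narrow members of the KO list, as the WT-only peaks were of the WT list. Their score, the authors' value from peak calling, ran between 40.02 and 1166.95 with a median of 56.2, against a median of 425 for shared KO peaks. The lowest score in the list was 40. They were 433 of the 866 KO peaks that scored 40 to 50, 34.6% of those from 50 to 75 and 18.0% of those from 75 to 100. From 200 to 500 they were 16 of 1729 peaks, and of the 4321 peaks at 500 or more only 4 were KO-only. None of the 1143 scored 3100 or more, where 18.1% of the shared peaks lay. The median width was 1565 bp for KO-only and 3835 bp for shared peaks. WT-only peaks had a median score of 61.4 within the WT list and a median width of 1646 bp. Just inside the rule lay a peak at chr12:68466121-68467802 (score 168.61), 1 bp from a WT peak. Just outside it lay a KO peak at chr4:175142124-175143229 (score 44.26), which overlapped a WT peak by 4 bp.

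**Figure D1:**
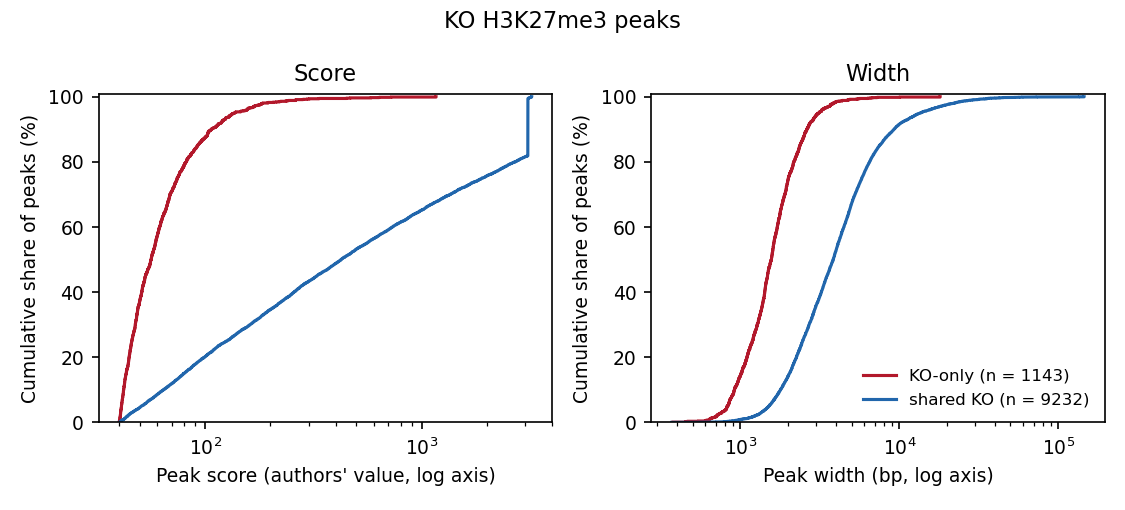
Cumulative share of KO H3K27me3 peaks (y axes, %) by the authors' peak score (left, log axis) and by peak width in bp (right, log axis), for the 1143 KO-only peaks (red) and the 9232 shared peaks (blue). KO-only peaks crowd at the low end of both axes, with medians of 56.2 and 1565 bp, against 425 and 3835 bp for shared peaks; WT-only peaks, not drawn, had medians of 61.4 and 1646 bp.

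The first question was whether the KO-only peaks lay beside domains that WT cells already had or away from them. Both kinds were present. Within 5 kb of a WT H3K27me3 peak lay 373 of the 1143 peaks (32.6%, 30.0 to 35.4), and 191 of these were within 1 kb. A further 306 (26.8%, 24.3 to 29.4) lay 5 to 50 kb away. The remaining 464 (40.6%, 37.8 to 43.5) were over 50 kb from any WT peak, among them 82 beyond 500 kb and 9 on sequences with no WT peak. The median gap was 25.3 kb over the 1134 peaks that had a WT peak on their sequence. WT-only peaks, measured to the KO list, had a median gap of 36.8 kb. Exclusive peaks within 5 kb of the other genotype made up 7.93 points more of the KO-only than of the WT-only peaks (4.78 to 11.1). For gaps over 50 kb the difference was -3.37 points, with an interval that included 0 (-6.77 to 0.0826). KO-only gaps were measured to 11906 WT peaks and WT-only gaps to 10375 KO peaks. A longer list leaves shorter gaps, and these comparisons were not adjusted for that.

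**Figure D2:**
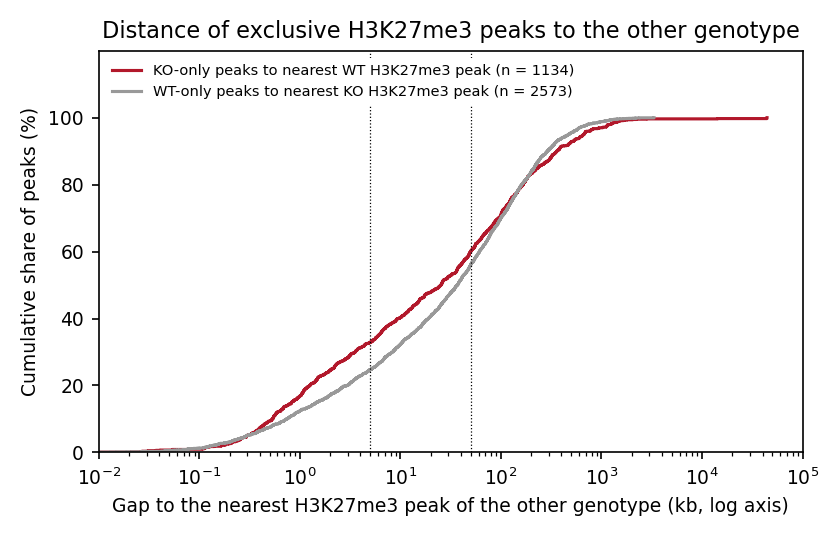
Cumulative share of exclusive H3K27me3 peaks (y axis, %) by the gap to the nearest H3K27me3 peak of the other genotype in kb (x axis, log), for KO-only peaks measured to the WT list (red) and WT-only peaks measured to the KO list (grey). The curves cover the 1134 and 2573 peaks with such a neighbour on their sequence, dotted lines stand at 5 and 50 kb, and the red curve lies above the grey one at 5 kb (of all exclusive peaks, 32.6% against 24.7%). The WT list held more peaks than the KO list, which was not adjusted for.

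Few KO-only peaks lay in a short gap between WT domains. Of the 1143, 47 (4.11%) had a WT peak within 5 kb on both sides, and 242 (21.2%) had one within 50 kb on both sides. For 70 of the 373 peaks within 5 kb (18.8%) the neighbouring WT peak was itself WT-only. There a WT peak without a KO counterpart stood next to a KO peak without a WT counterpart. Of all WT peaks, a different unit, 21.6% had no KO peak, and this share lies inside the interval of the 18.8%. WT-only neighbours were thus not more frequent than WT-only peaks in the WT list as a whole. Counted against WT peaks that were kept in KO, 317 KO-only peaks (27.7%) lay within 5 kb. The neighbouring WT peaks of the 373 had a median width of 2401 bp and a median score of 157.

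Most of the sequence called in KO and not in WT was inside peaks present in both genotypes. H3K27me3 peaks of KO cells covered 5.40 Mb that no WT peak covered, and 3.43 Mb of it (63.5%) lay inside shared KO peaks, beyond the WT edges. KO-only peaks held 1.97 Mb (36.5%), of which 0.627 Mb was within 5 kb of a WT peak and 0.795 Mb over 50 kb away. The sequence covered in WT alone was 7.34 Mb, with 4.69 Mb (63.9%) in WT-only peaks and 2.65 Mb (36.1%) inside WT peaks that overlapped a KO peak.

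The other marks at these regions were measured in separate libraries that the rule did not use. Most KO-only peaks carried neither H3K4me3 nor H3K27ac in either genotype: 793 of 1143 (69.4%, 66.6 to 72.0), against 1765 of 9232 shared peaks (19.1%, 18.3 to 19.9) and 1028 of 2575 WT-only peaks (39.9%). H3K4me3 of KO cells lay on 319 KO-only peaks (27.9%, 25.4 to 30.6), where all KO H3K27me3 peaks gave 73.3%. The shared peaks gave 78.9%, a difference of -50.99 points (-53.6 to -48.2). WT-only peaks stood between, at 55.2% (KO-only minus WT-only, -27.3 points, -30.4 to -24.0). With WT H3K4me3 the number was also 319, against 74.0% of all KO H3K27me3 peaks and 79.7% of the shared ones.

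The difference was smaller after weighting over strata of width and score. Among shared peaks weighted to the strata of the KO-only peaks, 55.2% had KO H3K4me3, so the difference was -27.3 points (-31.03 to -23.6). For WT H3K4me3 it was -27.6 points (-31.3 to -23.9). The highest stratum of width and of score had no upper limit, so shared peaks there could be wider and stronger than KO-only ones. Weighting thus matched the sets only in part, here and in the weighted differences below.

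**Figure D3:**
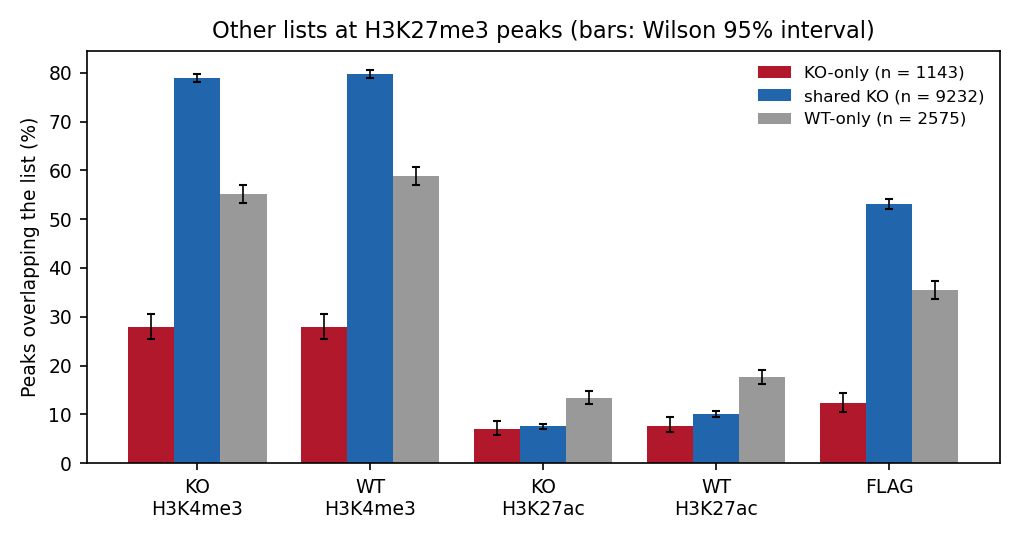
Share of peaks that overlapped each of 5 other lists (bars; y axis, %, from 0; lines are Wilson 95% intervals) for KO-only (red), shared KO (blue) and WT-only H3K27me3 peaks (grey). KO-only peaks had the lowest share of the 3 sets with H3K4me3, 27.9% in either genotype, and with FLAG, 12.3%, and WT-only peaks had the highest share with H3K27ac, 13.4% in KO and 17.6% in WT.

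H3K4me3 at KO-only H3K27me3 peaks was mostly called in both genotypes, at 294 of them (25.7%). The peaks at which H3K4me3 was called in KO alone numbered 25, and those at which it was called in WT alone also 25. The 25 made up 7.84% (5.36 to 11.3) of the 319 on KO H3K4me3, against 1.64% of all KO H3K27me3 peaks on KO H3K4me3. Counted over H3K4me3 peaks, a different unit, 7.30% of the KO list had no WT peak. Among shared H3K27me3 peaks the corresponding share was 1.37% (KO-only minus shared, 6.46 points, 3.97 to 9.95). Of the 319 on WT H3K4me3, 7.84% had none in KO, against 2.55% of all KO H3K27me3 peaks on WT H3K4me3. Of the WT H3K4me3 peaks themselves 12.3% had no KO peak. H3K4me3 in both genotypes without H3K27ac in either was the state of 198 regions (17.3%), against 66.5% of shared peaks. Taking only the last overlapped H3K4me3 peak along each region, the median score in the KO list was 1297 under KO-only H3K27me3, against 2781 under shared peaks.

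H3K27ac was infrequent at KO-only H3K27me3 peaks. KO H3K27ac lay on 81 KO-only peaks (7.09%, 5.74 to 8.72), against 7.47% of all KO H3K27me3 peaks and 7.52% of shared ones, a difference of -0.431 points with an interval that included 0 (-1.89 to 1.29). After weighting for width and score it was -1.92 points (-3.93 to 0.0882). WT H3K27ac lay on 88 (7.70%, 6.29 to 9.39), against 9.84% of all KO H3K27me3 peaks. The difference from shared peaks was -2.41 points (-3.95 to -0.613), and it included 0 when peaks up to 1 kb apart counted as marked (-2.90 to 1.14). After weighting it was -2.93 points (-4.95 to -0.898). WT-only peaks carried more H3K27ac, with 13.4% for the KO list (KO-only minus WT-only, -6.35 points, -8.27 to -4.28) and 17.6% for the WT list (-9.89 points, -12.0 to -7.68).

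Among H3K27me3 peaks on WT H3K27ac, absence of KO H3K27ac was less frequent at KO-only than at shared ones. Of the 88 KO-only H3K27me3 peaks on WT H3K27ac, 23 (26.1%, 18.1 to 36.2) had no KO H3K27ac, against 38.8% of all KO H3K27me3 peaks on WT H3K27ac. Counted over H3K27ac peaks, a different unit, 24.6% of the WT list had no KO peak. Among shared H3K27me3 peaks the share was 373 of 933 (39.98%), and the difference was -13.8 points (-22.5 to -3.34). Among WT-only peaks it was 166 of 453 (36.6%). The last overlapped WT H3K27ac peak of each region had a median score of 125 under KO-only peaks, against 104 under shared ones. The shares without KO H3K27ac were not weighted. KO H3K27ac without WT H3K27ac was seen at 16 of 81 (19.8%, 12.5 to 29.7), against 19.4% of all KO H3K27me3 peaks on KO H3K27ac. Of the KO H3K27ac peaks themselves 24.8% had no WT peak. In all, 13 KO-only H3K27me3 peaks lay on an H3K27ac peak of the KO list that had no WT counterpart, 1.14% of members against 1.29% of all KO H3K27me3 peaks. On an H3K27ac peak of the WT list that had no KO counterpart lay 17, 1.49% against 3.69%. H3K27ac was called in both genotypes at 65 regions.

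KO-only H3K27me3 peaks on H3K4me3 overlapped H3K27ac more often than shared ones did. Of the 319 on KO H3K4me3, 78 (24.5%, 20.1 to 29.5) had KO H3K27ac, against 689 of 7284 shared peaks (9.46%), a difference of 14.99 points (10.5 to 20.04). The same held in the WT libraries, 82 of 319 (25.7%) against 12.5%, a difference of 13.2 points (8.62 to 18.3). WT-only peaks on KO H3K4me3 had KO H3K27ac in 24.1%, and the interval of their difference from KO-only peaks, 0.384 points, included 0 (-4.57 to 5.83). The lists do not tell whether the marks lay on the same DNA molecules, alleles or cells.

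KO-only H3K27me3 peaks overlapped FLAG-ZNF263 peaks less often than shared ones did. A FLAG peak overlapped 141 of them (12.3%, 10.6 to 14.4), against 48.6% of all KO H3K27me3 peaks. Shared peaks had 53.1%, a difference of -40.7 points (-42.8 to -38.4), which was -16.7 points (-19.4 to -13.9) after weighting for width and score. Widening the window to 10 kb gave 339 KO-only peaks (29.7%) and 62.8% of the shared ones. The FLAG list skips some peak numbers. Intervals between listed FLAG peaks that hold absent numbers covered 4.81% of KO-only and 1.80% of shared peaks, where a FLAG peak cannot be looked up. FLAG peaks followed H3K4me3 within the set, with 110 of 319 (34.5%, 29.5 to 39.9) on KO H3K4me3 and 31 of 824 (3.76%, 2.66 to 5.29) off it, 30.7 points apart (25.5 to 36.2). Within each kind the share stayed below that of shared peaks. On KO H3K4me3 shared peaks had 65.1% (KO-only minus shared, -30.6 points, -35.7 to -25.1), and off it 8.01% (difference -4.25, -5.94 to -2.35). WT-only peaks on KO H3K4me3 had 55.7%, and the KO-only share minus theirs was -21.2 points (-26.8 to -15.2). Where FLAG peaks did overlap, the last of each region had a median score of 127 on KO-only regions, against 141 on shared peaks.

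Peaks next to WT domains and peaks away from them differed in the marks they carried. H3K4me3 of KO cells lay on 20.6% of those within 5 kb, on 30.4% of those 5 to 50 kb away and on 32.1% of those beyond 50 kb. The nearest class minus the farthest was -11.5 points (-17.3 to -5.47). H3K27ac of KO cells showed the same order, 4.83%, 6.21% and 9.48%, with a difference of -4.66 points between nearest and farthest (-8.14 to -1.10). FLAG peaks did not, with 11.8%, 15.4% and 10.8%, where the interval of the difference between nearest and farthest included 0 (1.02 points, -3.25 to 5.46). Beyond 500 kb FLAG peaks lay on 2 of 82 (2.44%, 0.671 to 8.46). Part of these 82, such as a cluster on chromosome 19, lay in long stretches without FLAG peaks by definition (below). The share without them was not computed, and an effect of distance was not tested. Score hardly varied with the gap, with medians of 58.4, 55.3 and 55.7.

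**Figure D4:**
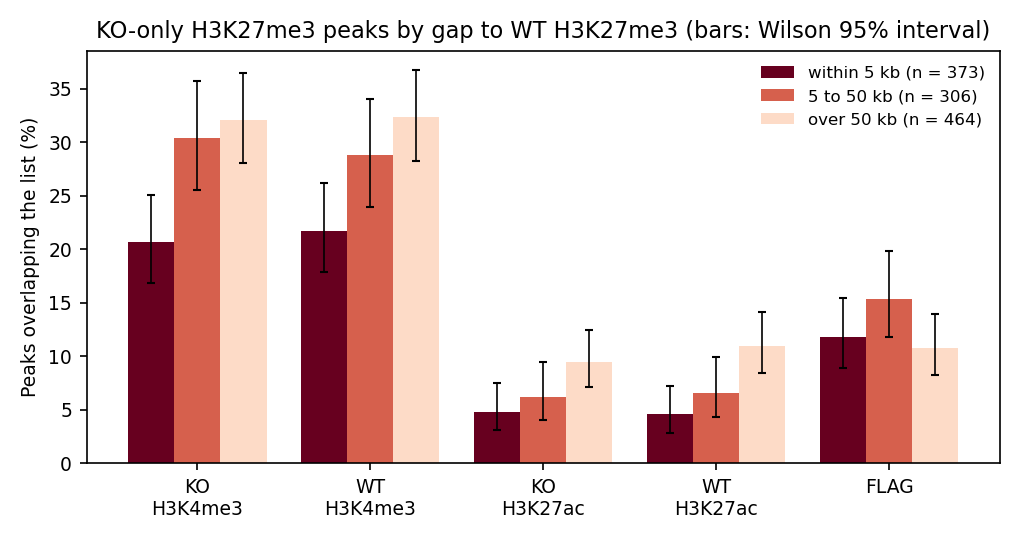
Share of KO-only H3K27me3 peaks that overlapped each of 5 other lists (y axis, %, from 0; lines are Wilson 95% intervals), by gap to the nearest WT H3K27me3 peak: within 5 kb (373 peaks), 5 to 50 kb (306) and over 50 kb (464). H3K4me3 and H3K27ac shares are lowest within 5 kb, at 20.6% and 4.83% for the KO lists, and FLAG shares do not follow that order.

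Each of the 10 largest scores belonged to a KO-only region over 5 kb from a WT H3K27me3 peak, where 32.6% of all members lay within 5 kb. Scores as a whole did not follow the gap. Their 90th percentiles were 106 within 5 kb, 103 at 5 to 50 kb and 109 over 50 kb. The highest score, 1166.95, belonged to a 6778 bp peak at chr13:114799049-114805826. Another KO-only peak lay just beyond its end, at chr13:114806042-114809365, with a score of 637.15. The nearest WT H3K27me3 peaks lay 40.6 and 37.0 kb away from them, no H3K4me3 or H3K27ac was called at either one in either genotype, and a FLAG peak overlapped each (scores 100.35 and 66.36). At chr18:76150317-76152505 (score 722.69) the nearest WT peak was 113 kb away. H3K4me3 was called there in KO alone, with a score of 901.24 and a width of 1873 bp, and a FLAG peak of score 153.62 overlapped it. This region thus had both marks of bivalent chromatin in KO and neither in WT.

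Several strong regions carried no other mark. A peak at chr7:4847507-4850428 (score 583.18) was 60.3 kb from WT H3K27me3 and 0.206 kb from the nearest FLAG peak. The peak at chr1:49820334-49824308 (score 467.43) was far from both, with 689 kb to WT H3K27me3 and 455 kb to a FLAG peak. At chr12:14835387-14840185 (score 302.24) WT H3K27me3 was 113 kb away, and at chr9:66823120-66827180 (score 295.4) it was 6.10 kb away. The widest KO-only peak, 18044 bp at chr16:32534169-32552212 (score 283.03), was 85.8 kb from WT H3K27me3.

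At strong regions on H3K4me3 present in both genotypes, the H3K27me3 peak lay far from WT domains in most cases. Those at chr6:110795873-110799044 (score 449.83), chr9:93403449-93405982 (score 335.37) and chr6:161186968-161188732 (score 262.77) were 115, 156 and 163 kb away. None of these 3 had H3K27ac or FLAG. At chr1:40768113-40771099 (score 222.55) a WT peak of score 3100 lay 6.76 kb away and a FLAG peak overlapped. In contrast, the region at chr1:156853779-156858645 (score 242.17) had H3K4me3 in WT alone and lay 1.40 kb from a WT H3K27me3 peak of 5540 bp.

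The highest scores within 5 kb of WT domains were lower. The peak at chr11:2502707-2506650 scored 261.48 and lay 2.85 kb from a WT peak. The peak at chr20:59709696-59716274 was 6579 bp wide, scored 237.9 and lay 0.294 kb from a WT peak that was narrower, at 2808 bp. The peak at chr12:130516723-130520219 scored 179.2 and lay 1.01 kb from a WT-only peak. None of these 3 carried H3K4me3, H3K27ac or FLAG. The other two of the 5 largest scores within 5 kb did carry H3K4me3: the chromosome 1 region at 1.40 kb, in WT alone, and chrY:4871721-4873252 (score 212.67, 0.356 kb from a WT-only peak), in both genotypes.

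A few regions combined KO-only H3K27me3 with H3K27ac. At chr17:47860537-47864332 (score 181.95) H3K4me3 was called in both genotypes, and H3K27ac was called in WT (score 229.35) and not in KO. The region at chr5:17402794-17404778 (score 130.43) had the same pattern with weak WT H3K27ac (score 46.62). At chr3:27571181-27574106 (score 146.15) H3K27ac was called in both genotypes. The opposite order occurred too: at chr20:23616332-23618365 (score 169.61), on H3K4me3 in both genotypes and on a FLAG peak, H3K27ac was called in KO alone, with a score of 40.23 near the lowest of that list. At chr16:24391761-24394407 (score 128.67) H3K27ac was called in KO alone (score 91.13) with no H3K4me3. Besides the chromosome 18 region, 4 further regions were taken as the strongest on an H3K4me3 peak of the KO list that had no WT counterpart, among them chr3:149753231-149755050, where that H3K4me3 peak scored 89.6. In all, 21 members lay on such an H3K4me3 peak, 1.84% against 1.31% of all KO H3K27me3 peaks.

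Most KO-only peaks had no other KO-only peak within 25 kb. Chained at gaps of up to 25 kb, 259 of the 1143 (22.7%) fell into 105 clusters and 884 were single, and no like count was made for other H3K27me3 peaks. Shared KO peaks were left out of the chaining, and 320 of the 1143 (28.0%) lay within 5 kb of one. The largest cluster had 9 members over 72.1 kb at chr16:32525161-32597240, with no WT or shared KO H3K27me3 peak inside. The next had 8 members over 69.8 kb at chr20:59494422-59564230, with 1 WT peak inside. Clusters of 6 at chr19:24516204-24563975 and of 4 at chr4:190625067-190678211 lay 1109 and 1419 kb from WT H3K27me3, while a cluster of 5 at chr12:130710605-130752736 began 0.523 kb from a WT peak. None of the members of these 5 clusters carried KO H3K4me3, KO H3K27ac or FLAG, which for the chromosome 19 cluster was fixed by its place inside a stretch that held no such peak. The FLAG list also skips peak numbers, and whether any fell at these clusters was not determined.

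A larger share of KO-only than of shared peaks lay at long stretches where the other lists were empty. In the 5 lists that the rule did not use, 20 stretches of 3 Mb or more held no H3K4me3, H3K27ac or FLAG peak. Inside or within 0.2 Mb of them lay 51 KO-only peaks (4.46%, 3.41 to 5.82), against 40 shared peaks (0.433%, 0.318 to 0.589) and 8 WT-only peaks (0.311%, 0.158 to 0.612). A stretch on chromosome 21 had 17 of the 51, one on chromosome 19 had 11 and one on chromosome 7 had 7. The 51 were weak, with a median score of 52.0 and a highest of 132.74, and 3 overlapped KO H3K4me3 and 4 WT H3K4me3. Marks inside a stretch were absent by its definition, so their low number there is no result. Unplaced or unlocalized sequences held 15 KO-only peaks out of 18 KO peaks. In WT these sequences held 8 WT-only peaks out of 11. Their part in the other results was measured by leaving them out. Without both kinds 1077 KO-only peaks were left, 34.1% of them within 5 kb and 38.5% over 50 kb from WT H3K27me3, and the FLAG difference from shared peaks was -40.2 points.

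By chromosome, the share of KO-only peaks was lowest on chromosome 15 (20 of 341, 5.87%, 3.83 to 8.89) and chromosome 17 (33 of 534, 6.18%, 4.43 to 8.55), both with intervals below the 11.0% of the whole list. Chromosome 20 had 14.9% (11.6 to 18.96), which includes the cluster of 8 above, whose members the interval treats as independent. WT-only peaks made up 27.3% of the WT list on chromosome 20, 21.8% on chromosome 15 and 20.5% on chromosome 17, against 21.6% of the whole WT list. Chromosome 21 had 24.0% (17.4 to 32.2), and 12.1% (7.24 to 19.7) when peaks at the long stretches were left out. Chromosome 16 had 13.3% and chromosome X 9.34%.

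**Figure D5:**
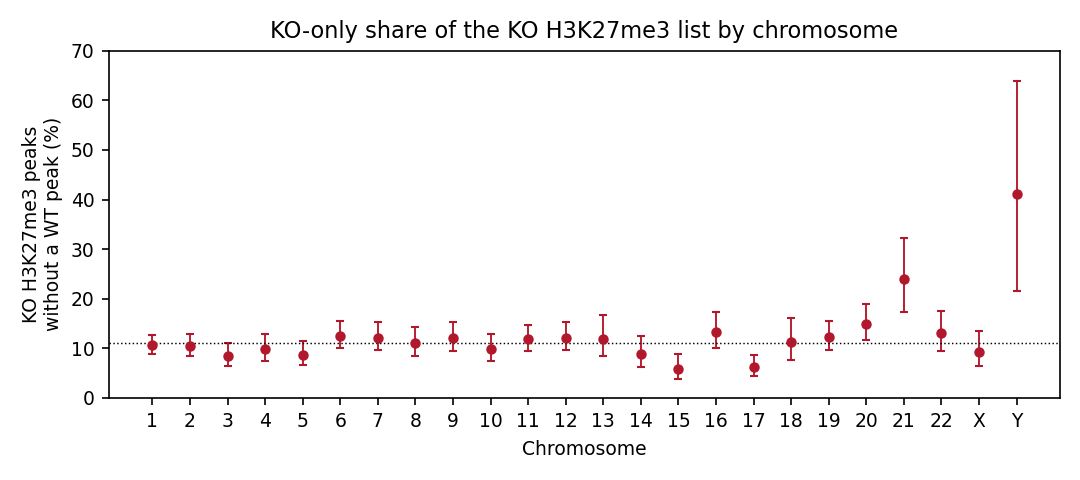
Share of the KO H3K27me3 list that had no WT peak (y axis, %, from 0) by chromosome (x axis); points are shares, lines Wilson 95% intervals, and the dotted line is the 11.0% of the whole list. Chromosomes 15 and 17 lie below the line with their whole intervals, and chromosomes 20, 21 and Y above it, the last with 17 peaks in all.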

How the data were processed

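Chromatin was fixed with formaldehyde and sonicated, and sequencing libraries were built with no size selection, per the labels. The submitters' processing notes name Bowtie2, Picard and hg19. The deposited peak names begin with MACS. No source used here states the caller's version, which input each list used or whether libraries were pooled. The score of each peak is the authors' value, on a scale that no source used here states, and it served only to describe, rank and weight peaks within a list. A peak absent from a list may lie just below the caller's threshold, so the number of exclusive peaks also depends on sequencing depth.

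Groups came from the sample titles. Overlap meant at least 1 bp, and gaps were measured edge to edge. For weighting, shared peaks were standardized over strata of width and score (quintiles of the KO-only peaks, the highest without an upper limit), with a normal interval. Computation used python 3.11.15, numpy 2.4.6, pandas 2.3.3 and scipy 1.17.1, with plots in matplotlib 3.10.9. Overlaps were checked by direct count on a sample of KO peaks, and gaps on artificial peaks placed beside WT peaks. Newcombe intervals were checked on simulated counts, while the Wilson and weighted intervals were not checked. The members, lists and tests were chosen with earlier results of these data known.

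Regions were named by rule: the 10 largest scores, the 5 largest in each gap class and for each of 5 states of the other lists, the 3 widest, and the 5 largest clusters. This gave 35 regions, of which a selection is described. Ties between clusters were broken by summed width. Alternatives were another overlap, a gap of 1 kb, merging at 3 kb, autosomes, the upper 50% by score, H3K27me3 lists of equal number, weighting, strong FLAG peaks and other gap limits. Promoter sequences and genes were not used here, since the tables at hand belong to another build.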

Additional observations from a re-analysis of the deposited data

How the results depend on the processing

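Of 85 alternatives for 11 results, 68 kept the verdict, 12 moved and 5 became weaker, and no difference of shares reversed. For such differences, keeping it meant the same direction and side of 0, or a small change where both intervals included 0. For the number of peaks it meant staying within a set fold of the main number, which is a loose limit. For the other shares it meant a value inside the main interval. The number of KO-only peaks was 952 with a gap of 1 kb, 803 after merging at 3 kb, 1097 on autosomes, 1217 with an overlap of 50%, 1479 with lists of equal number, and 7 among KO peaks in the upper 50% by score. On those few peaks 0 lay within 5 kb and 71.4% over 50 kb from WT H3K27me3, and the differences from shared peaks were -7.20 points for WT H3K27ac and -18.9 for FLAG, with intervals that included 0. The share within 5 kb became 29.5% with H3K27me3 lists of equal number and 28.1% with limits of 3 kb and 100 kb. By construction it rose to 36.7% with an overlap of 50%, where the added members overlap a WT peak by less than that. Also by construction it dropped to 19.1% when a gap of 1 kb or less counted as overlap and to 10.6% when peaks up to 3 kb apart were merged. The share over 50 kb became 48.7% and 54.2% under those settings, 44.7% with lists of equal number and 29.7% beyond 100 kb. The WT H3K27ac difference was -1.03 points at 1 kb, -1.56 after merging and -1.62 with equal numbers, each with an interval that included 0, and the cause was not tested. Of the 35 named regions, 33 stayed KO-only at 1 kb, 30 after merging, 35 with an overlap of 50% and 7 in the upper 50%. Leaving out the long stretches and unplaced sequences was chosen after seeing the data. No paired analysis was possible because each arm had 1 library. Depth limits every count of exclusive peaks and is unknown.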

Other observations

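Width of the KO-only H3K27me3 peaks differed with H3K4me3, with medians of 1781 bp for the 319 on KO H3K4me3 and 1464 bp for the 824 off it. Their median scores were 57.6 and 55.4. KO-only peaks without KO H3K4me3 were a median of 27.7 kb from the nearest KO H3K4me3 peak over the 810 that had one on their sequence, close to the 25.9 kb of shared peaks without one. The median distance to H3K27ac of KO cells, where none overlapped, was 81.9 kb for KO-only and 69.5 kb for shared peaks. For FLAG it was 55.2 kb and 45.7 kb.

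In the FLAG list 186 peak numbers are skipped. Intervals between neighbouring listed FLAG peaks that hold absent numbers covered 55 KO-only peaks (4.81%), 166 shared peaks (1.80%) and 45 WT-only peaks (1.75%). A FLAG peak at these regions cannot be looked up here.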
